A study of Homo sapiens with 3 samples.

Results

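The genes described here encode the enzymes that place and remove acetyl and methyl groups on histones: histone deacetylases and sirtuins, lysine acetyltransferases, lysine methyltransferases and lysine demethylases. Members were all gene symbols that begin with HDAC, SIRT, KAT, KMT, KDM, SETD, NSD or EZH followed by a digit, with EP300, CREBBP, DOT1L, EED and SUZ12 added and hyphenated symbols left out. This gave 70 of 16793 gene symbols, comprising 10 acetyl writers, 18 acetyl erasers, 25 methyl writers and 17 methyl erasers. RNA was measured in H446 cells, an established line from human small cell lung cancer, grown for 48 h with vehicle, with 3-bromoascochlorin (BAS) at 5 µM or with BAS at 10 µM. BAS is a brominated form of the fungal metabolite ascochlorin, and the study was directed at its antitumour effect through the MAPK pathway. Each of the 3 groups is a single library, so differences could not be set against a spread between replicates and no p-value is given. In bulk RNA, fewer cells of a kind and less RNA per cell cannot be told apart.

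Acetylation of histone lysines by acetyltransferases loosens the grip of histones on DNA and recruits bromodomain proteins, and deacetylases reverse it. Class I, II and IV deacetylases use zinc, whereas sirtuins use NAD and so depend on the metabolic state of the cell. Methylation carries different meanings at different lysines: marks placed by the KMT2 enzymes go with active promoters and enhancers, while the mark of polycomb repressive complex 2 (PRC2) goes with silenced genes. Small cell lung cancer is a tumour in which CREBBP, EP300 and KMT2D are often mutated and in which EZH2 and KDM1A are studied as drug targets. RNA levels measure neither the enzymes as proteins nor the histone marks.

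Levels are in FPKM, fragments per kilobase of transcript scaled to library size, which allows levels of different genes to be compared. The values summed to 487923, 507342 and 492102 FPKM with vehicle, 5 µM and 10 µM, and the read depth behind them is unknown. Differences are given as log2(FPKM + 1), BAS minus vehicle; on that scale low genes appear to differ less than they do. They were taken over the 11512 genes that averaged 1 FPKM or more, whose median difference was 0.02 at 5 µM and 0.05 at 10 µM. Of the neuroendocrine markers that define most small cell lung cancers, 9 of 10 had a value and all 9 averaged at least 1 FPKM, among them NEUROD1 at 104.96 FPKM and INSM1 at 72.85 FPKM with vehicle. Summed, these 9 were at 407.79, 473.61 and 541.09 FPKM with vehicle, 5 µM and 10 µM. UCHL1, at 82.21, 131.19 and 176.51 FPKM, was the furthest above vehicle in FPKM. NEUROD1, at 104.96, 93.15 and 91.62 FPKM, and SYP, at 17.30, 12.77 and 13.25 FPKM, were below vehicle at both doses. The other neuroendocrine markers were above it. The 5 epithelial markers summed to 13.63, 5.37 and 4.88 FPKM. The leukocyte marker PTPRC was at 0.92 to 1.09 FPKM and the endothelial marker PECAM1 at 0.10 to 0.16 FPKM, while CDH5, of the same endothelial list, was at 51.99 to 57.56 FPKM. The 3 fibrillar collagen genes listed were high in all libraries, with COL1A2 at 370.87 to 412.40 FPKM, while the fibroblast marker DCN was at 0.23 to 0.31 FPKM. Summed fibroblast markers were at 751.34, 933.71 and 924.28 FPKM with vehicle, 5 µM and 10 µM, and the part of these marker lists in the results was not tested.

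At 10 µM, 4 members lay at or past a limit of 1.5-fold, and the 250 bases before the RefSeq start of each (GRCh38.p14, 5′ to 3′) are printed because the largest differences among the members belong to these genes. Capitals mark matches on either strand to the GC box GGGCGG, the CCAAT box CCAAT, the ETS motif CCGGAAGT or the E-box CACGTG; the cyclic AMP response element TGACGTCA was searched too and is in none of them.
SETD6 (chr16:58515267-58515516, plus strand): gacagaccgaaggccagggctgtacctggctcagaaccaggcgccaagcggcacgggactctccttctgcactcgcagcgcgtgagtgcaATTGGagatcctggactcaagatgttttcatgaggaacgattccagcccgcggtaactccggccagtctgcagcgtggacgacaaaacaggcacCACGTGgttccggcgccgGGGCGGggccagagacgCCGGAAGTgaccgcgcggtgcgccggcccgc
KMT2E (chr7:105013955-105014204, plus strand): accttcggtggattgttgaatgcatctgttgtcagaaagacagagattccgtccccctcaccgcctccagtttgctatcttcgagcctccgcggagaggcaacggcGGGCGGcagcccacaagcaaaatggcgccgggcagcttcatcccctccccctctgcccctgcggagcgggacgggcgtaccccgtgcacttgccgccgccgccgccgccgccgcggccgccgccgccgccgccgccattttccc
SETD5 (chr3:9397365-9397614, plus strand): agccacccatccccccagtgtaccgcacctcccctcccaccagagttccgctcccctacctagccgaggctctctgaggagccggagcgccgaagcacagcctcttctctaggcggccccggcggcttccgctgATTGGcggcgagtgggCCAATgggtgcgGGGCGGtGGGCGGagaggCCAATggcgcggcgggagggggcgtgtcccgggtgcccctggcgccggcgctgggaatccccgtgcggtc
KAT14 (chr20:18144849-18145098, plus strand): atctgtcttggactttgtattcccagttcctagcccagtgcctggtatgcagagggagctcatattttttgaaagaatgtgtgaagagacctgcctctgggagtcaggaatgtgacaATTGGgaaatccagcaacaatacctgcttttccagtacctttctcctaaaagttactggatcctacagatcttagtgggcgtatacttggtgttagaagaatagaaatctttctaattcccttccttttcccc
SETD6, KMT2E and SETD5 had windows with 26, 30 and 25 CpG dinucleotides, and the KAT14 window had 1. Only the first listed start of each gene was used, and any other starts, those of KAT14 included, were not searched. The G and C content was 65.6% for SETD6, 68.8% for KMT2E, 73.2% for SETD5 and 43.2% for KAT14. Among the 60 members past the filter with an entry in the table, the median was 67.4% and 23.5 CpG dinucleotides, against 58% and 11 over all 27305 gene promoters of that length. The 27305 promoters were not filtered by expression, whereas the members were, so the sets differ in more than membership. A GC box was in 65% of the members' windows, against 42.3% of all promoters, and a CCAAT box was in 35%, against 33% of all. The E-box was in 13.3% of the members' windows, against 6.49% of all, the ETS motif in 6.67%, against 3.64%, and the cyclic AMP response element in 0 of 60, against 1.77%. No bases in the printed windows were shared by a pair of these motifs. A match to such letters is a description of the window.

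Most members stayed close to vehicle, as did most genes tested. Of the 70 members, 67 passed the filter, and their vehicle levels ran from 1.01 FPKM for HDAC11 to 130.45 FPKM for KDM1A, with a median of 12.6 FPKM beside 12.1 FPKM over all genes tested. SIRT4, KDM4D and HDAC10 did not pass. SIRT4, a mitochondrial sirtuin, was at 0.81, 0.74 and 0.48 FPKM with vehicle, 5 µM and 10 µM. KDM4D was at 0.62, 0.63 and 0.71 FPKM, and HDAC10 at 0.65, 0.73 and 0.88 FPKM, with 77.6% of its 50-base sequences also found in transcripts annotated to its neighbour MAPK12. At 5 µM, no member was past 2-fold in either direction (0 higher, beside 0.539% of all genes, and 0 lower, beside 0.208%). At 10 µM, 0 members were past 2-fold upward, beside 1.31% of all genes, and 1, KAT14, was past it downward, beside 0.643%.

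With the limit at 1.5-fold, 0 members were higher and 2 lower at 5 µM, beside 3.01% and 1.6% of all genes. At 10 µM, 1 member was higher and 3 were lower, beside 6.04% and 3.44% of all genes. Thus 63 of 67 members stayed within 1.5-fold of vehicle at both doses, and by the shares just given so did most genes. By direction alone, 38 of 67 members lay below vehicle at 5 µM, beside 46.6% of all genes, and 29 above, beside 53.2%. At 10 µM, 37 lay below, beside 43.3% of all genes, and 30 above, beside 56.5%. The median member differed by -0.06 at 5 µM and by -0.04 at 10 µM. There were 32 members below vehicle at both doses, 24 above at both, 6 below at 5 µM and above at 10 µM, and 5 the other way round.

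**Figure D1:**
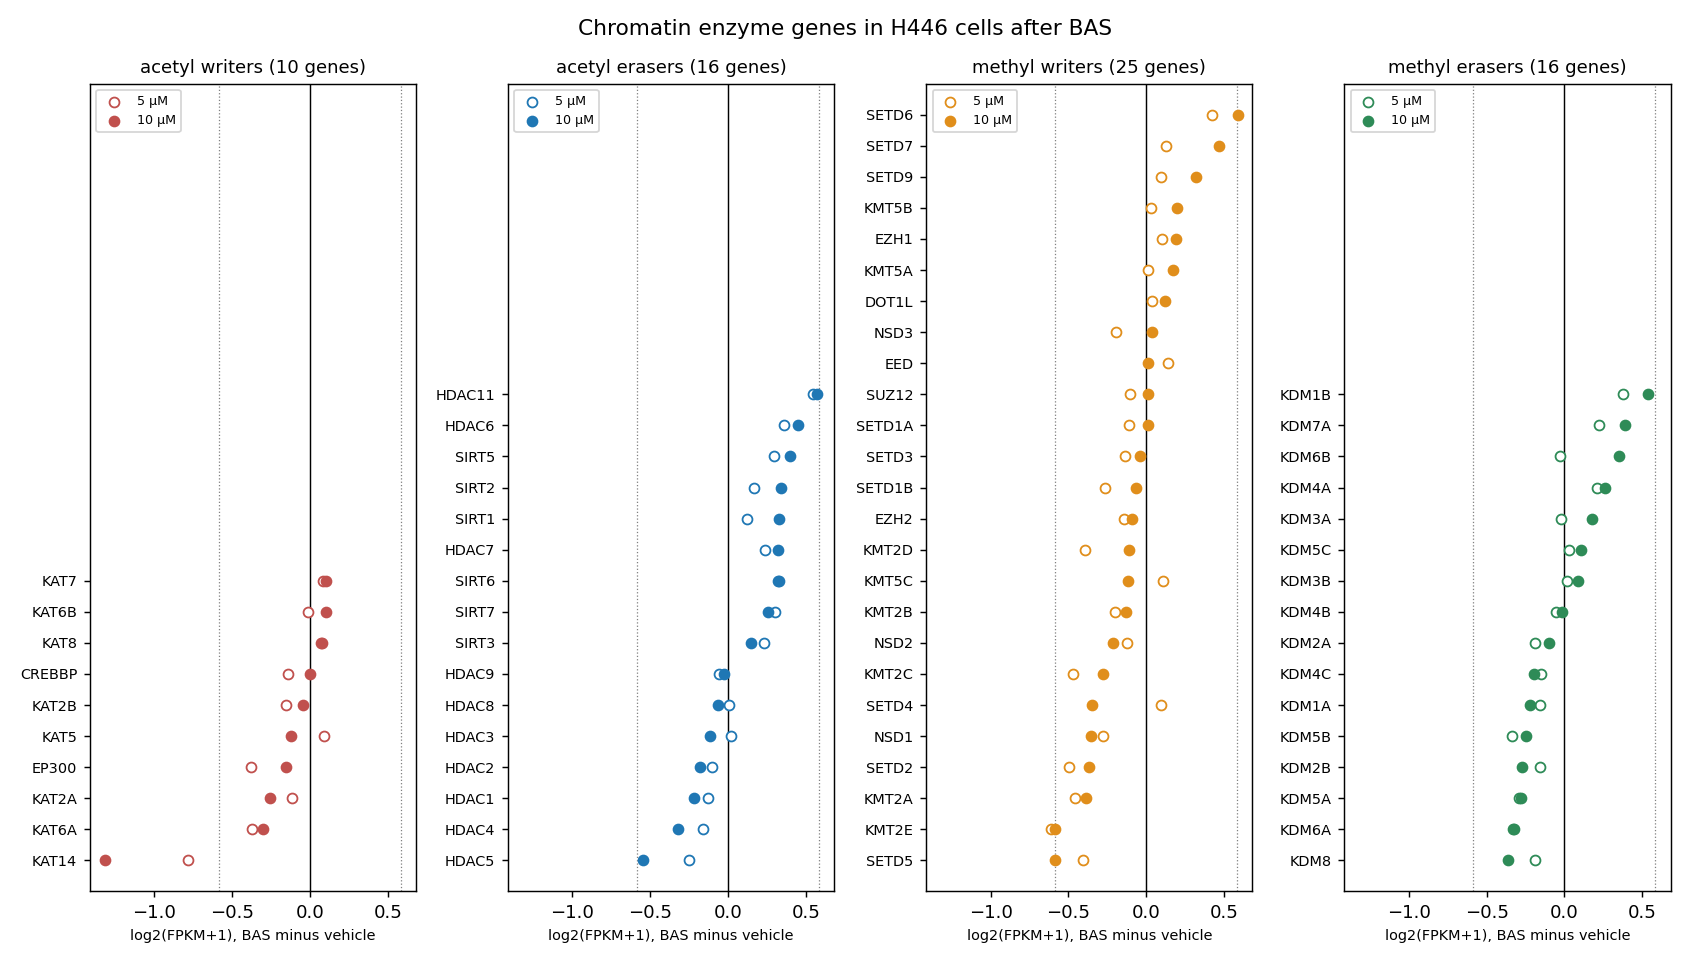
Each row is a member past the filter, grouped as acetyl writers, acetyl erasers, methyl writers and methyl erasers; open circles give the difference in log2(FPKM + 1) at 5 µM and filled circles at 10 µM, each against vehicle, and dotted lines mark 1.5-fold. KAT14 stands far to the left at -1.32 for 10 µM, and the remaining members lie between -0.61 and 0.59.

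KAT14 was the member furthest from vehicle. It encodes an acetyltransferase subunit of the ATAC complex, which acts on histones at active genes, and was at 9.30, 4.99 and 3.13 FPKM with vehicle, 5 µM and 10 µM. Its level was 0.537 times vehicle at 5 µM and 0.337 times at 10 µM, and its difference of -1.32 at 10 µM was the 23rd lowest among 11512 genes. KAT14 overlaps its neighbour PET117 on the same strand in GENCODE 29, with 15.5% of its 50-base sequences found there. PET117, an assembly factor of respiratory complex IV, was at 7.67, 10.31 and 9.31 FPKM with vehicle, 5 µM and 10 µM, so that it was above vehicle at both doses where KAT14 was below. Other ATAC subunits were named after their values were seen, and the full complex was not listed. KAT2A and its paralog KAT2B were below vehicle at both doses, and TADA2A, TADA3, YEATS2 and SGF29 were above it. TADA2A was at 16.47, 17.96 and 17.80 FPKM, TADA3 at 46.25, 51.73 and 54.01 FPKM, YEATS2 at 13.70, 14.96 and 15.53 FPKM and SGF29 at 23.92, 32.83 and 28.86 FPKM.

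The remaining acetyl writers were near vehicle or slightly below it. KAT2A (GCN5), the catalytic subunit shared by SAGA and ATAC, was at 26.20, 24.11 and 21.80 FPKM with vehicle, 5 µM and 10 µM. Its paralog KAT2B (PCAF) was at 3.89, 3.39 and 3.74 FPKM, below KAT2A in every library. EP300, a coactivator that acetylates enhancers, was at 11.90, 8.94 and 10.60 FPKM, lowest at 5 µM. CREBBP, its close relative, was at 14.46, 13.02 and 14.43 FPKM, which at 10 µM differs from vehicle by less than 0.01 on the log2 scale.

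The MYST acetyltransferases lay on both sides of vehicle. KAT6A, which acetylates histone H3, was at 15.30, 11.58 and 12.24 FPKM, whereas its paralog KAT6B was at 6.09, 6.04 and 6.60 FPKM. KAT7 (HBO1), linked to replication origins, was the highest of the acetyl writers, at 32.01, 34.00 and 34.40 FPKM. KAT8 (MOF), which acetylates histone H4, was at 24.57, 26.03 and 25.87 FPKM. KAT5 (TIP60), a DNA damage acetyltransferase, was at 16.55, 17.65 and 15.15 FPKM. KAT5 shares 38.6% of its exonic bases with RNASEH2C on the opposite strand, whose level was 1.45 times vehicle at 10 µM, and whether the counting used strand is not given in the sources used here.

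Sirtuins were above vehicle as a family, while the zinc-dependent deacetylases were not. Each of these 6 sirtuins was above vehicle at both doses, beside 53.2% of all genes at 5 µM and 56.5% at 10 µM. Their medians were 0.26 at 5 µM and 0.33 at 10 µM. Of the 6, 0 were at least 1.5-fold higher, beside 3.01% and 6.04% of all genes. SIRT4, which did not pass the filter, was below vehicle at both doses, at 0.81, 0.74 and 0.48 FPKM. Sirtuin levels, summed over all 7 genes, were 71.54, 85.25 and 89.03 FPKM with vehicle, 5 µM and 10 µM. SIRT1, the nuclear deacetylase of histones and p53, was at 12.60, 13.80 and 16.09 FPKM. SIRT2, which deacetylates tubulin in the cytoplasm and histone H4 in mitosis, was at 16.90, 19.11 and 21.70 FPKM. Both were ordered with dose.

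SIRT6, a chromatin-bound deacetylase that acts in DNA repair, was the highest sirtuin, at 17.94, 22.79 and 22.68 FPKM. SIRT7, found in the nucleolus, was at 11.68, 14.62 and 14.14 FPKM. These nuclear sirtuins were as high at 5 µM as at 10 µM. SIRT3, the main mitochondrial deacetylase, was at 8.41, 10.04 and 9.41 FPKM, and SIRT5, which removes succinyl and malonyl groups, at 3.20, 4.15 and 4.53 FPKM. The 6 sirtuins stayed above vehicle under each scaling tried and with trends in transcript length and GC content removed, where their median was 0.17 at 5 µM and 0.19 at 10 µM.

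Class I deacetylases were slightly below vehicle at 10 µM, and HDAC1, HDAC2 and HDAC3, the catalytic subunits of nuclear corepressor complexes, were the highest of all deacetylases. HDAC2 was at 78.94, 73.50 and 69.51 FPKM and its partner HDAC1 at 67.76, 61.83 and 58.07 FPKM, both ordered downward with dose. HDAC3, the enzyme of the NCOR complexes, was at 50.12, 50.86 and 46.10 FPKM and HDAC8, which acts on cohesin, at 17.33, 17.42 and 16.53 FPKM. All 4 were below vehicle at 10 µM, by a median of -0.15, and so they were under each scaling tried, as were 3 of 4 with length and GC trends removed. At 5 µM 2 were below, 3 with median-ratio scaling, and 4 with the libraries rescaled to a common total or quantile-normalised.

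Class II and IV members went both ways. HDAC5, a class IIa enzyme that shuttles out of the nucleus when phosphorylated, was at 18.97, 15.79 and 12.70 FPKM, 0.669 times vehicle at 10 µM. HDAC4, of the same class, was at 1.58, 1.31 and 1.06 FPKM and HDAC9 at 3.49, 3.31 and 3.41 FPKM. HDAC7 was on the other side of vehicle, at 6.95, 8.37 and 8.95 FPKM. HDAC7 shares 11.2% of its exonic bases with opposite-strand genes, among them SLC48A1, which was 1.71 times vehicle at 5 µM and 1.95 times at 10 µM. HDAC6, the cytoplasmic tubulin deacetylase, was at 9.88, 12.96 and 13.83 FPKM, 1.40 times vehicle at 10 µM. HDAC11, which removes fatty acyl groups, had a plain ratio of 1.96 at 10 µM but from low levels, at 1.01, 1.94 and 1.98 FPKM. On the log2(FPKM + 1) scale this is a difference of 0.57, just under the 1.5-fold limit.

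**Figure D2:**
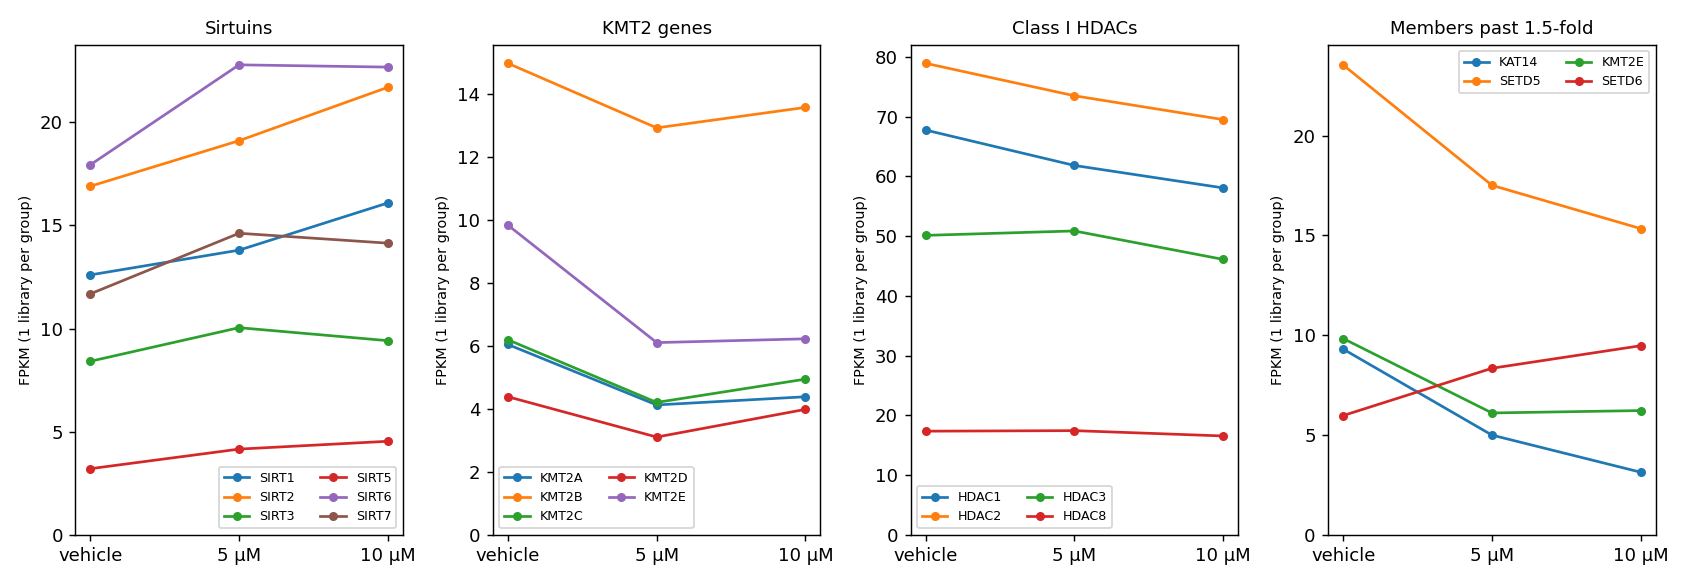
FPKM (vertical axes, from 0) in the vehicle, 5 µM and 10 µM library, 1 library each, for sirtuins, KMT2 genes, class I deacetylases and the members past 1.5-fold at 10 µM. The sirtuin lines lie above their vehicle points, each of the KMT2 lines has its lowest point at 5 µM, and KAT14 reaches 3.13 FPKM at 10 µM.

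Among the methyl writers, the KMT2 genes were below vehicle at both doses. KMT2A to KMT2D (the MLL proteins) place methyl groups on histone H3 lysine 4, and KMT2E is a relative for which no such activity is established. KMT2A was at 6.04, 4.12 and 4.38 FPKM with vehicle, 5 µM and 10 µM, and KMT2B at 14.97, 12.92 and 13.57 FPKM. KMT2C was at 6.19, 4.20 and 4.94 FPKM and its enhancer-bound partner KMT2D at 4.38, 3.10 and 3.98 FPKM. KMT2E was at 9.83, 6.10 and 6.22 FPKM, 0.621 times vehicle at 5 µM and 0.633 times at 10 µM, at least 1.5-fold lower at both doses on the log2(FPKM + 1) scale, at 10 µM exactly on the limit, and -0.49 and -0.50, inside it, with length and GC trends removed. All 5 were lowest at 5 µM, with a median difference of -0.46 there and of -0.28 at 10 µM. The transcripts of KMT2A, KMT2C and KMT2D are 16628, 16862 and 19419 bases long. With length and GC trends removed, the 5 genes stayed below vehicle at 5 µM with a median of -0.21, and at 10 µM 4 of 5 were below with a median of -0.10, KMT2D being at 0.12.

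Of the SETD genes, SETD1A and SETD1B, which also methylate histone H3 lysine 4, had separate levels, 15.48, 14.24 and 15.63 FPKM for SETD1A and 5.19, 4.16 and 4.91 FPKM for SETD1B. SETD2, the enzyme of histone H3 lysine 36 trimethylation in gene bodies, was at 9.95, 6.78 and 7.49 FPKM. SETD5, whose own catalytic activity is debated, was at 23.54, 17.51 and 15.34 FPKM, 0.652 times vehicle at 10 µM and inside the limit, at -0.53, with trends removed. Not all SETD genes were below vehicle. SETD6, which methylates the NF-kB subunit RELA, was at 5.97, 8.34 and 9.47 FPKM, 1.59 times vehicle at 10 µM and the highest difference among the members, 0.59, which was 0.53 to 0.58 and inside the limit under each scaling and with trends removed. SETD6 shares 21.4% of its exonic bases with CNOT1 on the opposite strand, which was at 30.80, 25.81 and 26.02 FPKM, below vehicle where SETD6 was above.

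SETD7, a monomethyltransferase of histone H3 and of other proteins, was at 22.74, 24.88 and 31.87 FPKM. SETD3, a methyltransferase of actin, was the highest of the SETD genes at 34.28, 31.13 and 33.33 FPKM. SETD4 was at 7.47, 8.04 and 5.66 FPKM and SETD9 at 5.33, 5.75 and 6.91 FPKM.

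Of PRC2, which methylates histone H3 lysine 27, the 4 members were close to vehicle. The catalytic subunit EZH2 was at 30.88, 27.91 and 28.94 FPKM, and its paralog EZH1, typical of resting cells, at 3.90, 4.26 and 4.59 FPKM. SUZ12 was at 31.96, 29.70 and 32.26 FPKM, with 9.68% of its 50-base sequences found in the pseudogene SUZ12P1. EED, which binds the finished mark, was at 7.43, 8.28 and 7.51 FPKM. The largest difference among these 4 was 0.19, for EZH1 at 10 µM. Some accessory subunits outside the rule, named after their values were seen, lay further away. JARID2 was at -0.38 at 5 µM and -0.28 at 10 µM, MTF2 at -0.28 and EPOP at 0.34 at 10 µM. Others, AEBP2, PHF1, PHF19, LCOR, RBBP4 and RBBP7, were at both doses within the 0.19 of EZH1.

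Of the NSD enzymes, which dimethylate histone H3 lysine 36, NSD2 was at 19.26, 17.60 and 16.51 FPKM, NSD1 at 1.87, 1.37 and 1.24 FPKM and NSD3 at 15.68, 13.59 and 16.12 FPKM. The KMT5 enzymes, which methylate histone H4 lysine 20, were led by KMT5A, at 29.76, 30.06 and 33.61 FPKM. KMT5B was at 8.78, 8.98 and 10.22 FPKM and KMT5C at 10.16, 11.03 and 9.27 FPKM. DOT1L, the only known methyltransferase of histone H3 lysine 79, was at 16.19, 16.60 and 17.66 FPKM.

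Of the 16 methyl erasers past the filter, 0 reached 1.5-fold at either dose. Over all genes, 3.01% were higher and 1.6% lower by that limit at 5 µM, and 6.04% and 3.44% at 10 µM. KDM1A (LSD1), the flavin-dependent demethylase of the CoREST complex, was the highest member of all, at 130.45, 117.17 and 111.64 FPKM with vehicle, 5 µM and 10 µM. Its paralog KDM1B (LSD2) was at 13.49, 17.82 and 20.08 FPKM, 1.49 times vehicle at 10 µM, so that the 2 flavin enzymes lay on opposite sides of vehicle. KDM6A (UTX) and KDM6B (JMJD3), which remove the PRC2 mark, also separated at 10 µM. KDM6A was at 7.86, 6.09 and 6.05 FPKM and KDM6B at 7.49, 7.31 and 9.84 FPKM.

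The KDM5 enzymes, which erase the mark that the KMT2 enzymes place, were at 8.91, 7.11 and 7.17 FPKM for KDM5A, 28.07, 22.07 and 23.51 FPKM for KDM5B and 28.19, 28.81 and 30.48 FPKM for KDM5C. KDM2A and KDM2B, which bind unmethylated CpG islands, were similar, KDM2A with 13.83, 12.00 and 12.88 FPKM and KDM2B with 13.48, 11.98 and 11.01 FPKM. KDM3A, a hypoxia-induced demethylase of histone H3 lysine 9, was at 14.85, 14.60 and 16.95 FPKM and KDM3B at 18.58, 18.78 and 19.85 FPKM. Of the KDM4 enzymes, KDM4A was the highest at 21.22, 24.75 and 25.62 FPKM, KDM4B was at 8.55, 8.22 and 8.44 FPKM and KDM4C at 9.29, 8.29 and 8.01 FPKM. The annotation assigns 44.8% of the 50-base sequences of KDM4A also to other transcripts, as it does 21.5% of those of KMT2A, 22.2% of those of KMT5A and 18.7% of those of HDAC8, so their levels are less certain. KDM7A was at 1.92, 2.41 and 2.83 FPKM. KDM8, better known as a protease and hydroxylase, was at 3.15, 2.65 and 2.23 FPKM, the lowest difference among the methyl erasers at 10 µM, -0.36.

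Set against each other, acetyl writers had a lower median than acetyl erasers, among which the sirtuins and the HDAC genes differed. Methyl writers and methyl erasers had medians close to each other. At 5 µM the median difference was -0.13 for the 10 acetyl writers and 0.14 for the 16 acetyl erasers, and at 10 µM it was -0.08 and 0.20. Of the acetyl writers, 7 of 10 were below vehicle at each dose. Of the acetyl erasers, 5 of 16 were below at 5 µM and 7 of 16 at 10 µM. Writers minus erasers was -0.27 at 5 µM and -0.28 at 10 µM. Within the erasers, the HDAC genes had a median of -0.03 at 5 µM and of -0.09 at 10 µM, and the sirtuins of 0.26 and 0.33. At 10 µM the HDAC median was close to the -0.08 of the acetyl writers, and 7 of 10 HDAC genes were below vehicle. At 5 µM it lay above the -0.13 of the acetyl writers, with 5 of 10 below. Without SIRT3 and SIRT5, writers minus erasers was -0.20 at each dose. HDAC6, HDAC8, HDAC11 and SIRT2, which also have targets other than histone acetyl groups, were kept in that comparison. Over the full lists, with length and GC trends removed, acetyl writers minus erasers was -0.20 at 5 µM and -0.16 at 10 µM.

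For methylation, the 25 writers had a median of -0.12 and the 16 erasers of -0.10 at 5 µM, and -0.07 and -0.06 at 10 µM. Writers minus erasers was -0.02 at 5 µM and -0.01 at 10 µM, and ran from -0.12 to 0.05 and from -0.08 to 0.04 over the alternatives, so that its sign is not fixed. Summed levels on the plain FPKM scale differed in part from the medians. The acetyl erasers summed to 0.981 times vehicle at 10 µM, where their median difference was 0.20. The acetyl writers summed to 160.27, 149.75 and 147.96 FPKM with vehicle, 5 µM and 10 µM and the acetyl erasers to 328.22, 333.27 and 322.05 FPKM, a ratio of 0.488, 0.449 and 0.459. The methyl writers summed to 347.23, 320.65 and 341.63 FPKM and the methyl erasers to 329.95, 310.69 and 317.30 FPKM, a ratio of 1.05, 1.03 and 1.08. These sums are weighted toward the highest genes, KDM1A, HDAC1 and HDAC2.

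**Figure D3:**
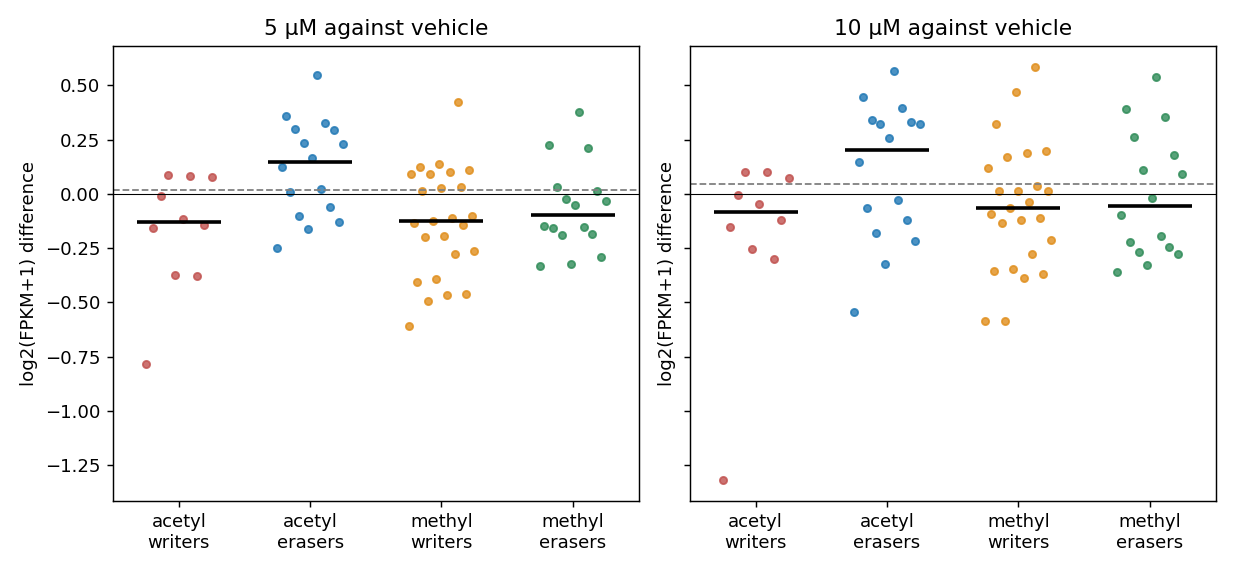
Differences in log2(FPKM + 1) of BAS against vehicle (vertical axis) for each member past the filter, at 5 µM on the left and 10 µM on the right; thick bars are list medians, the dashed line the median of all genes tested, and the horizontal spread of points has no meaning. The acetyl eraser median lies above the dashed line at both doses, at 0.14 and 0.20, and the other 3 medians lie below it.

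Long transcripts were lower with BAS across the whole data set, and the members are longer than most genes. The median length of the longest coding transcript was 5326 bases for the 67 members and 3431 bases for 11366 matched genes. Spearman's correlation of length with the difference was -0.56 at 5 µM and -0.31 at 10 µM over the members, and -0.33 and -0.19 over the matched genes, which share the same 3 libraries. Of the 20 members of at least 8000 bases, 18 (90%) lay below vehicle at 5 µM and 16 (80%) did at 10 µM, where 72.5% and 62.1% of all 944 genes of that length were. Of the 47 shorter members, 20 (42.6%) were below at 5 µM and 21 (44.7%) at 10 µM, beside 44.1% and 41.5% of shorter genes. KAT14, with 3618 bases, kept its value with the trend removed, -0.77 at 5 µM and -1.32 at 10 µM.

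**Figure D4:**
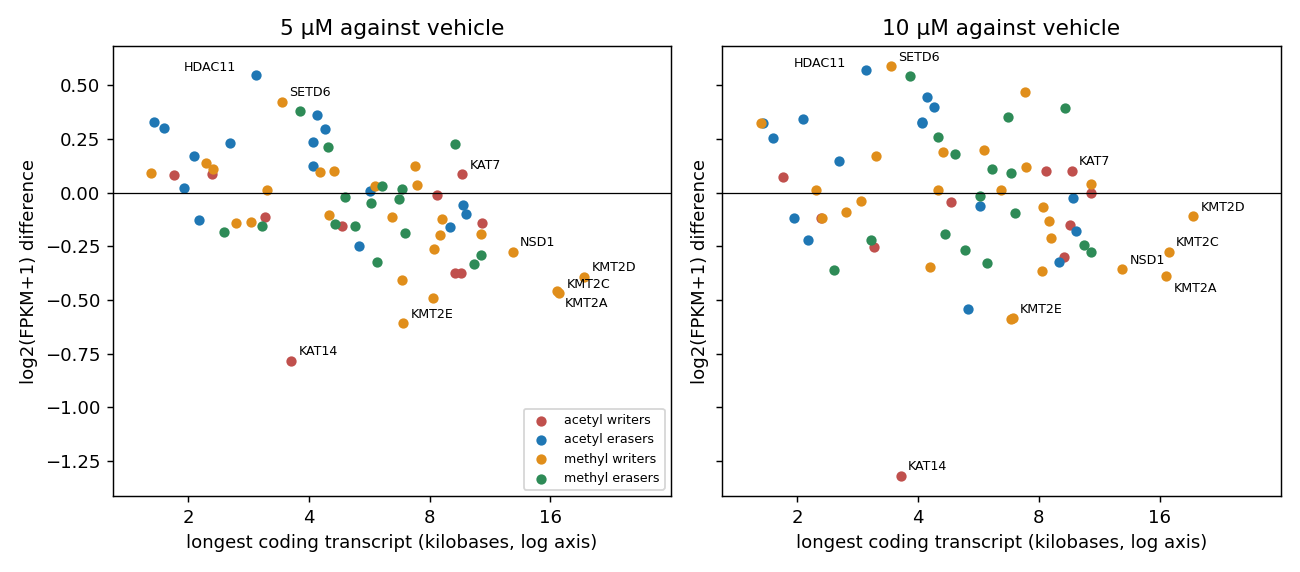
Each point is a member past the filter, with the length of its longest coding transcript in kilobases on a log axis and its difference in log2(FPKM + 1) against vehicle on the vertical axis, at 5 µM (left) and 10 µM (right). The members over 8 kilobases lie mostly below 0 at 5 µM, 18 of 20, and KAT14 is low at a short length.

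Between the doses, 0 members were past 2-fold in either direction, beside 0.0434% of all genes higher and 0.0434% lower at 10 µM than at 5 µM. At 1.5-fold the count was again 0, beside 0.434% higher and 0.408% lower. By direction, 43 members were higher at 10 µM than at 5 µM, beside 58.6% of all genes, and 24 lower, beside 41%. KAT14 was the lowest at 10 µM relative to 5 µM, with a difference of -0.54, and KDM6B the highest, with 0.38. Across the 3 libraries, 24 of 67 members had their lowest value at 5 µM (35.8%, beside 25.6% of all genes) and 10 their highest there (14.9%, beside 20.1%). Another 19 were ordered upward with dose (28.4%, beside 32.9%) and 14 downward (20.9%, beside 20.8%). Of the 25 methyl writers 12 were lowest at 5 µM, among them all 5 KMT2 genes, SETD1A, SETD1B and SETD2. At 10 µM against 5 µM the methyl writers had a median of 0.10, with 19 of 25 higher, and the acetyl erasers of -0.03. Longer transcripts tended to be higher at 10 µM than at 5 µM. Spearman's correlation of length with that difference was 0.16 over the matched genes and 0.29 over the members. With length and GC trends removed, 19 of 25 methyl writers were higher, with a median of 0.09. The part of length in the order of the 3 libraries was not tested.

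Genes outside the rule that work with these enzymes were also within 2-fold of vehicle. Of 214 such genes past the filter, 0 were past 2-fold at either dose. Over all genes, 0.539% were past 2-fold upward and 0.208% downward at 5 µM, and 1.31% and 0.643% at 10 µM. At 10 µM 4 were past 1.5-fold upward and 7 downward, and at 5 µM 0 upward and 2 downward; over all genes the shares were 6.04% and 3.44% at 10 µM, and 3.01% and 1.6% at 5 µM. Below vehicle, as counted in the lists that follow, were 46.6% of all genes at 5 µM and 43.3% at 10 µM. In these lists, the gene with the lowest or highest difference is the one whose log2 difference at 10 µM was so, whatever its level. Of the bromodomain and other reader proteins, 24 of 28 were below at each dose, with a median of -0.22 at 10 µM beside 0.05 over all genes. The lowest difference was that of BRD2, a transcriptional coactivator, at 90.82, 65.39 and 54.20 FPKM, and the highest that of BRD3, at 23.95, 25.15 and 27.01 FPKM. BRD2 was 0.597 times vehicle at 10 µM.

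Of 39 acetyltransferase complex subunits, 3 were 1.5-fold higher and 2 lower at 10 µM, with a median of 0.05 that equals that of all genes. The lowest difference was that of MBTD1, a subunit of the TIP60 complex, at 11.76, 7.01 and 5.57 FPKM, and the highest that of JADE1, of the HBO1 complex, at 10.97, 14.90 and 18.86 FPKM. Of 33 deacetylase complex subunits, 22 were below vehicle at 10 µM, 1 was 1.5-fold higher and 2 lower. GPS2, a subunit of the NCOR complexes, had the highest difference, with 71.61, 101.85 and 130.08 FPKM, and ZMYM2, which binds the CoREST complex, the lowest, with 16.88, 11.35 and 10.49 FPKM.

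Of 13 other acetyl writers 10 were below vehicle at each dose, with 0 past 1.5-fold. NCOA3, a nuclear receptor coactivator, had the lowest difference, with 6.40, 4.80 and 4.27 FPKM, and the cohesin acetyltransferase gene ESCO2 the highest, with 9.19, 10.48 and 12.15 FPKM. Of 19 other methyl writers 9 were below vehicle at 10 µM and 1 was past 1.5-fold, SMYD3, at 9.51, 7.39 and 4.82 FPKM. SMYD2 had the highest difference of them, with 23.71, 27.66 and 28.05 FPKM. Among the 18 COMPASS and DOT1L complex subunits, 15 lay below vehicle at 5 µM and 11 did at 10 µM, with 0 past 1.5-fold. ASH2L, a core subunit of all KMT2 complexes, had the highest difference, with 22.99, 31.15 and 29.59 FPKM, and AFF1, of the elongation complexes, the lowest, with 9.02, 6.84 and 7.21 FPKM.

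Of 27 polycomb subunits outside the rule 13 were below vehicle at 10 µM, with 0 past 1.5-fold. Their differences ran from that of PCGF5, at 24.77, 20.21 and 18.73 FPKM, to that of CBX6, at 16.96, 18.45 and 23.09 FPKM. Of 12 other demethylases and JmjC proteins 3 were below at 10 µM, and differences ran from that of JMJD1C, at 9.81, 6.41 and 6.90 FPKM, to that of JMJD4, at 5.79, 7.98 and 8.70 FPKM. Of 12 DNA methylation genes 6 were below at 10 µM and 0 were past 1.5-fold, with the lowest difference for the de novo methyltransferase gene DNMT3A, at 6.41, 5.22 and 4.73 FPKM, and the highest for the repair gene MBD4, at 19.88, 19.23 and 23.20 FPKM and so below vehicle at 5 µM. Of 17 genes that supply acetyl-CoA, NAD and the methyl donor, 11 were above vehicle at 10 µM. The NAD synthesis gene NMNAT1 had the lowest difference, with 5.54, 4.28 and 3.08 FPKM, and IDH1, which makes the demethylase cofactor 2-oxoglutarate, the highest, with 22.18, 28.79 and 31.99 FPKM.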

How the data were processed

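RNA of 3 H446 libraries (vehicle, 5 µM and 10 µM BAS, 48 h) was sequenced as single-end 50-base reads, per the labels' protocols. The authors deposited FPKM per gene symbol, per the file headers, in files titled RPKM; per the submitters' processing notes, the build was hg19 and the tools included Cufflinks, Cuffdiff, Bowtie2, BWA and Trim Galore. Their versions and roles, the annotation, the strand setting and the scaling are not stated in those sources. Headers code the treated libraries as ASB85 and ASB810; doses follow the labels.

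Rows of a repeated symbol were summed (16795 rows, 16793 symbols). Genes that averaged 1 FPKM or more were compared as log2(FPKM + 1); with 1 library per group, limits of 2-fold and 1.5-fold on that scale replace a test. Members and lists were chosen with earlier results of these data known. Named genes were members past 1.5-fold, the 6 highest and 6 lowest at 10 µM, the highest of each family, set paralog pairs, and, for other genes, the highest and lowest of each list; other members are given for completeness. Transcript lengths, GC content, shared 50-base sequences and exon overlaps came from GENCODE 29 (GRCh38), matched by symbol; promoters came from RefSeq (GRCh38.p14). Only the 2-fold limit was tried on simulated data, with shifts larger than those of the members and without the lower genes. The 1.5-fold limit was not tried. The depth is unknown, so no counting error can be given. Tables were computed with pandas 2.3.3, scipy 1.17.1 and numpy 2.4.6 in Python 3.11.15, and drawn with matplotlib 3.10.9.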

Additional observations from a re-analysis of the deposited data

How the results depend on the processing

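The alternatives were a pseudocount of 0.1 or 0.5, a filter at 5 FPKM or none, and quantile normalization, a common total or median-ratio scaling. Length and GC trends were also removed. A last alternative left these members past the filter out of the lists: SIRT3, SIRT5, SETD3, SETD4, SETD6, KDM8, EED and SUZ12. No scaling moved the median of all genes by over 0.1. Among list medians and differences of medians, 161 recomputed values lay within 0.1 of those reported and 1 did not: acetyl writers minus erasers at 10 µM was -0.16 with length and GC trends removed, against -0.28 as reported. No called value changed sign. The count of members at least 1.5-fold higher at 10 µM was 2 with either pseudocount, where HDAC11 joined SETD6, and 0 with each of the 3 scalings and with trends removed, where SETD6 was just inside the limit (0.53 to 0.58). At 5 µM it was 1 with either pseudocount. The count at least 1.5-fold lower was 1 at each dose with trends removed, KAT14 alone. For 10 µM against 5 µM it was 1, KAT14, with either pseudocount and with quantile normalization. HDAC5, inside the limit as reported at 10 µM, at -0.54, ran to -0.60 over the alternatives and so past 1.5-fold. The single member at least 2-fold lower at 10 µM, KAT14, was called under every alternative that recomputed it. No paired analysis was possible because each group has 1 library, which also left no replicate to leave out. Depth is unknown, so differences near 0 cannot be told from counting noise, least of all for low genes such as HDAC11 and NSD1.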
